A study of Mus musculus with 12 samples.

Results

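The mouse line MB114, described as microvascular endothelial, was compared after 5 h and after 1 h on Matrigel. Endothelial cells gather into capillary-like cords on this gel of basement membrane proteins. Of the markers measured here, 5 of 26 endothelial identity and 11 of 14 fibroblast markers passed the brightness filter described below. The 3 arrays whose titles give 5 h were set against the 3 whose titles give 1 h, 6 of the 12 arrays of a series that also holds 3 arrays each at 15 and 25 h. Every array carried total RNA of the same cell line, split 24 h before it was placed on the gel, and the labels name no genotype, inhibitor or growth factor that differs between the groups. The reference is 1 h on the gel and not a resting culture, since none was analysed here. The titles number the samples of each time as biological replicates 1 to 3 and do not say what the replicates share. The p-values measure the spread left between the 12 arrays once time and replicate number are fitted. Spread between the numbers themselves enters only the fits that ignore the number. The values are MAS5 signals, linear brightness values, 1 per probe set, each drawn from the probes of a transcript. Signals of different probe sets are not levels per length, and no gene's signal is set against another's. The number of arrays limits the precision: with 3 against 3 taken without pairs, 0.1 is the smallest p that exact permutation allows. Pairing the arrays by number leaves fewer arrangements, so that the smallest possible p is larger.

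Cells that meet a new matrix, fresh medium or growth factors switch on a first wave of genes that need no new protein to be transcribed. These include the AP-1 subunits of the Fos and Jun families, the Egr zinc finger factors and the phosphatases that later silence the kinases behind them. A second set of genes follows actin tension, through the transcription factor SRF with its actin-sensing partners and through the co-activators YAP and TAZ. In cord-forming endothelial cells the TGF-beta and BMP ligands, the VEGF receptors and the enzymes that cut and cross-link matrix are known regulators.

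Across 7379 tested genes, 573 (7.77%) differed between 5 h and 1 h at an adjusted p under 0.05 in limma. Of these, 331 (4.49% of all) were higher at 5 h and 242 (3.28%) were lower, with 3 of 3 numbered pairs going the same way in all 573. The fit took the replicate number into account, which favours such genes, so this agreement is no separate support. By at least 2-fold, 110 rose and 107 fell, and by at least 4-fold 14 rose and 15 fell. The median fold was 1.75 for the genes that rose and 1.94 for those that fell, while the median log2 change of all genes tested was 0.04. The genes that fell had a median signal of 1075 at 1 h and 538 at 5 h, and those that rose had 381 at 1 h and 702 at 5 h, beside a median of 592 for all genes at 1 h. In 1368 genes (18.5%) the 3 signals of one time did not overlap those of the other, among them 456 of the 573. The 573 were called on these same signals, so their share without overlap is no separate support either. Of the 573, 207 had a further probe set bright enough to test; the further probe sets all went the same way in 195 of them, in 82 at least 1 was called as well, and in 0 was 1 called the opposite way.

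The replicate numbers mattered for this test. Over the 12 arrays 2091 genes (28.3%) differed between replicate numbers 1, 2 and 3 by limma's F test, and the number was kept as a block in the comparison of 5 h with 1 h. Hbegf shows the pattern: its signal was 6998, 3861 and 1232 at 1 h and 2804, 995 and 573 at 5 h (arrays 1 to 3 in this order, here and throughout), so that each number fell while the 2 times overlapped. Without the block 122 genes passed, 65 higher and 57 lower. For any gene below that lost its call without the block, that adjusted p is given as "unpaired". Leaving out a 1 h array lowered the count to 320 (array 1), 331 (array 2) or 326 (array 3), and leaving out 5 h array 2 lowered it to 292. Arrays numbered 1 had a brighter 18S rRNA control (1497 and 2557.5, against 101 to 178 on the other 4) and brighter spike-ins. Without the 4 arrays numbered 1 the count was 152 (71 higher, 81 lower), beside 163 without number 2 and 397 without number 3. Of 47 list counts of 1 or 2 members, 31 changed in at least 1 fit without 1 array, so such counts are given as they stand and not followed array by array. Unless stated otherwise, a gene described with its 6 signals kept its call in every fit that left out 1 array, and its 3 and 3 signals did not overlap. The gene's second probe set, where there is 1, was not called for Acvr1, Cebpd, Cspg4, Cx3cl1, Ier5, Il6st, Nfkbia, Pfkp, Spred1 and Stard4.

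**Figure D1:**
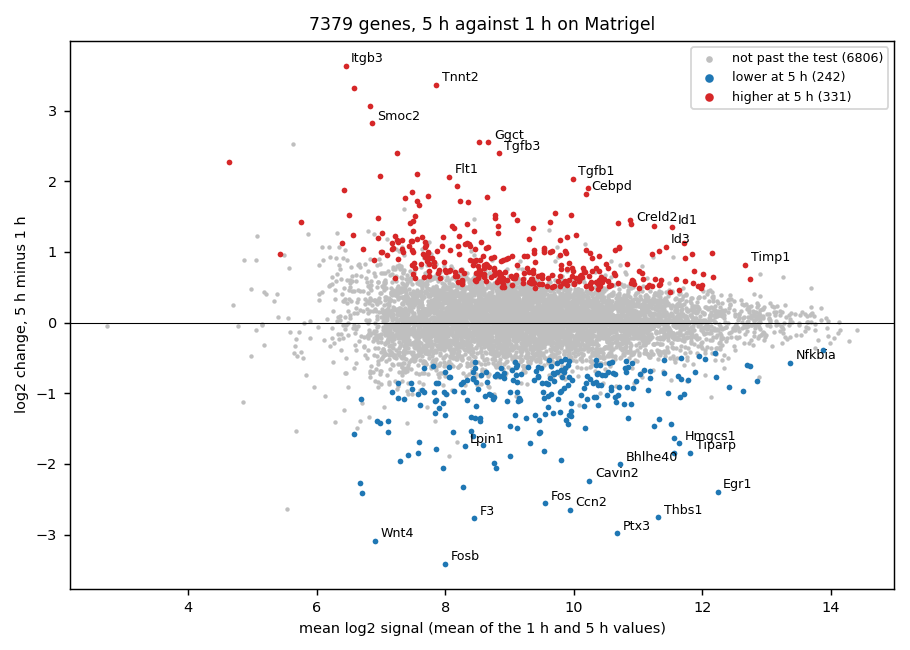
Each point is 1 of 7379 genes, with its mean log2 signal on the x axis and its log2 change from 1 h to 5 h on the y axis; blue points (242) were lower and red points (331) higher at an adjusted p under 0.05. Fosb lies lowest among the labelled genes and Itgb3 highest, with a log2 change of -3.41 and 3.64.

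Several first-wave transcription factors fell. Of 11 tested AP-1 subunits, 6 fell and 0 rose (0 rose also at an unadjusted p under 0.05), with a list median log2 change of -1.43. Fosb, a Fos family partner of the Jun proteins, had signals of 793, 723 and 995 at 1 h and 71.9, 89.0 and 74.0 at 5 h. It fell 10.6-fold (log2 change -3.41 ± 0.27, SE, adjusted p = 1.91e-05) and each 5 h signal was far below each 1 h signal. Its relative Fos read 939.6, 2697 and 1852 at 1 h and 292, 168 and 467 at 5 h and fell 5.89-fold (log2 change -2.56 ± 0.34, SE, adjusted p = 0.000778), most on array 2. Junb, a Jun protein that pairs with Fos proteins, read 7308, 2718 and 4588 at 1 h and 2569, 1289 and 1406 at 5 h and fell 2.69-fold (adjusted p = 0.000899, unpaired 0.0682); array 1 was the brightest at both times. Mafk, a small Maf protein that lacks an activation domain, fell 3.72-fold from 1176, 1000.4 and 797 at 1 h to 255, 305 and 235 at 5 h (adjusted p = 7.33e-05). Its log2 change was -2.21, -1.71 and -1.76 on numbers 1 to 3. The other members that fell were Atf3 and Maff, with log2 changes of -1.96 and -1.61; they complete the list and lie outside the rule for named genes.

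Of 13 tested Egr, Nr4a and Ier genes, 8 fell and 0 rose (0 at an unadjusted p under 0.05), with a median log2 change of -0.95; 5 fell without the block and 5 without 1 h array 1. Egr1, a zinc finger factor that growth factors and mechanical stress induce, read 9892, 11169.5 and 10549.8 at 1 h and 3488, 1130.1 and 2029 at 5 h. It fell 5.26-fold (log2 change -2.40 ± 0.28, SE, adjusted p = 0.00041) with the 1 h signals close together and the 5 h signals more spread. Egr2, a close relative, read 385, 216 and 972 at 1 h and 59.0, 90.5 and 208 at 5 h and fell 4.17-fold (adjusted p = 0.00438, unpaired 0.0894), with number 3 the highest at each time. Zfp36, which encodes tristetraprolin, a protein that marks short-lived mRNAs for decay, read 963, 2509.8 and 1943 at 1 h and 433, 338 and 563 at 5 h and fell 3.85-fold (adjusted p = 0.00144). Ier5, an early gene induced by growth factors, fell 2.03-fold (adjusted p = 0.00193).

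Kinase feedback genes did not move as one. Of 10 tested Dusp and Sprouty family genes, 4 fell and 2 rose, or 2 fell and 0 rose without the block, and 2 fell without 5 h array 2. Dusp2, a nuclear phosphatase of MAP kinases, read 7849, 4787 and 4384 at 1 h and 2244, 935 and 1696 at 5 h and fell 3.59-fold (adjusted p = 0.00061). Dusp10, which acts on the p38 and JNK kinases, read 458, 492 and 568 at 1 h and 272, 240.1 and 278 at 5 h and fell 1.92-fold (adjusted p = 0.00633). Spred1, an inhibitor of the Ras to ERK pathway, went the other way, from 504, 769 and 739 at 1 h to 1131, 1555 and 1244 at 5 h, a 1.97-fold rise (adjusted p = 0.00131, unpaired 0.0853). Among the EGF family, 1 of 7 tested genes fell and 1 rose. Hbegf, a heparin-binding ligand of the EGF receptor, fell 2.75-fold (adjusted p = 0.00403, unpaired 0.427), whereas the ligand betacellulin, Btc, rose 2.52-fold from 162, 187 and 181 at 1 h to 351, 562 and 445 at 5 h (adjusted p = 0.000917).

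The CArG box is the site that SRF binds. It is shown for 2 called genes of the early response and 1 called target of SRF and YAP, in RefSeq promoter sequence of build GRCm38.p6. Of 48 members of the AP-1, Egr, Dusp and SRF lists with a promoter window (250 bases before to 50 after the start site), 7 held the box on either strand, 5 of them called. Among all 48, with or without the box, 27 were called. Among all 27025 genes with a window 1.81% held it, and among the 6049 tested genes 1.64%. Capitals mark the box, and each sequence runs 5′ to 3′ along the gene's strand; a match is a description of these letters and shows no binding.
Egr2, chr10:67537772-67537831, plus strand: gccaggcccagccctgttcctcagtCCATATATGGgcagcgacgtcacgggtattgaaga
Zfp36, chr7:28379252-28379311, minus strand: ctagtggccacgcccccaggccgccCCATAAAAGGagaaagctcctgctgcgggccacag
Fhl2, chr1:43163962-43164017, minus strand: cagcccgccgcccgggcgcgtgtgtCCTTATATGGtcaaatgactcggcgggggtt
Maff, a small Maf factor of the AP-1 list, held the only cAMP response element (TGACGTCA, both strands searched) among 10 AP-1 subunits with a window, beside 2.03% of all genes and 3.75% of tested genes. The TPA response element (TGAGTCA) was in 0 of the 10, beside 5.95% of all genes and 4.73% of tested genes.
Maff, chr15:79347466-79347519, plus strand: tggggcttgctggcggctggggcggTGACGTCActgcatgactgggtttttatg

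SRF and YAP answer to actin tension, and part of their target genes fell. Of 22 tested SRF and YAP targets, 13 fell and 0 rose (1 rose at an unadjusted p under 0.05), with 21 of 22 below 0 and a median log2 change of -0.83. The count of falls was 4 without the block and 7 without 1 h array 3. Ccn2, a secreted matricellular protein and a standard YAP readout, read 1764, 5592 and 829 at 1 h and 408, 479 and 169.8 at 5 h and fell 6.27-fold (log2 change -2.65 ± 0.29, SE, adjusted p = 0.000233); the brightest 5 h array lay below the dimmest 1 h array and the 1 h signals were themselves spread, with number 2 the brightest. Cavin2, a coat protein of caveolae, read 2793, 2972 and 2125 at 1 h and 651, 435 and 591 at 5 h and fell 4.72-fold (log2 change -2.24 ± 0.18, SE, adjusted p = 1.91e-05). It was the single call among 6 tested caveolins and cavins. Amotl2, an angiomotin that restrains YAP, read 1063, 1944 and 1603 at 1 h and 557, 680.1 and 496 at 5 h and fell 2.60-fold (adjusted p = 0.000385). Fhl2, a LIM protein that binds SRF, whose promoter is shown above, read 1373, 1210.2 and 1215 at 1 h and 449.9, 629 and 504 at 5 h and fell 2.42-fold (adjusted p = 0.00061).

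Contractile genes lay mostly below 0, but their calls depended on the pairing. Of 11 tested smooth muscle contractile genes, 5 fell and 0 rose (0 at an unadjusted p under 0.05), with a median log2 change of -0.60; 0 passed without the block and 2 passed without 1 h array 1, 1 h array 3 or 5 h array 1. Smtn, a protein of actin stress fibres, read 2553, 1933 and 1766 at 1 h and 1334, 881 and 888 at 5 h and fell 2.03-fold (adjusted p = 0.00602, unpaired 0.0714). Acta2, smooth muscle actin, read 7303, 4416 and 12846 at 1 h and 3952, 3409 and 8764 at 5 h and fell 1.52-fold (adjusted p = 0.0166, unpaired 0.670), a call lost without 1 h array 1 or 5 h array 1. Its signals overlapped between the times, and number 3 was the brightest at both. Acta2 and Cspg4 were the pericyte and smooth muscle markers that passed the test, and they moved in opposite directions. Cspg4, the NG2 proteoglycan of pericytes and other mesenchymal cells, read 836, 576 and 364 at 1 h and 1827, 2029 and 1118 at 5 h and rose 2.87-fold (adjusted p = 0.000778, unpaired 0.0958).

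**Figure D2:**
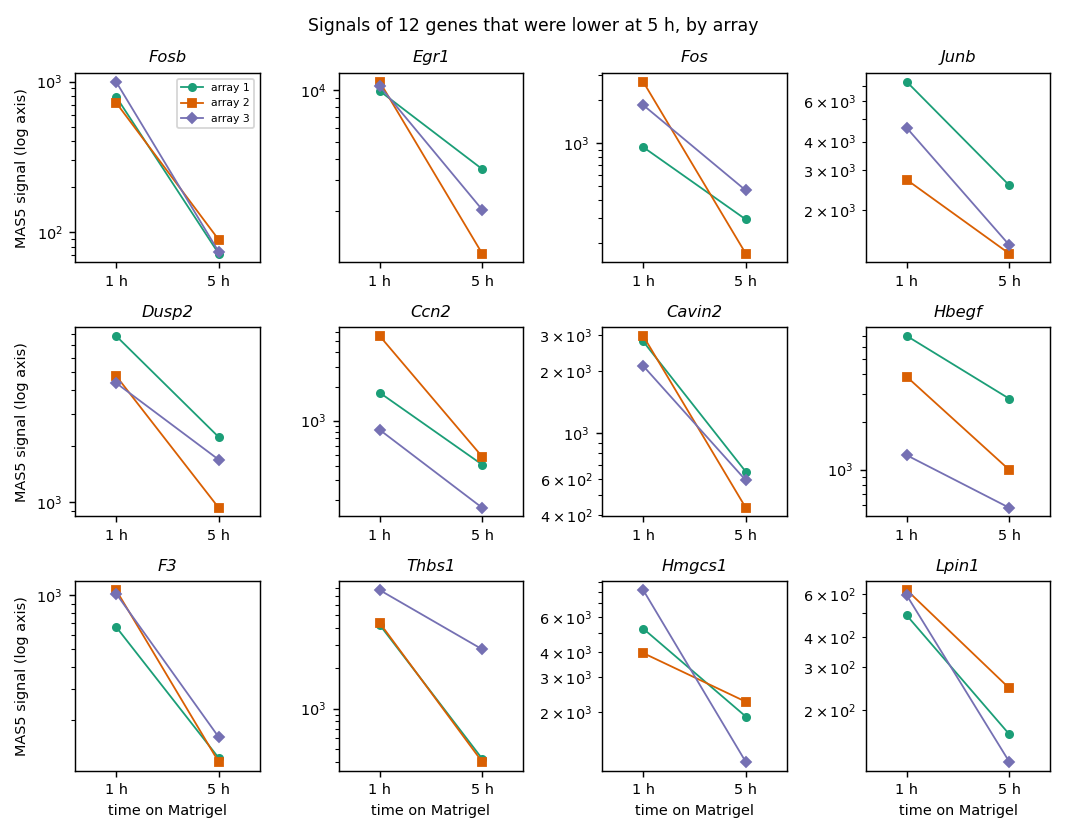
MAS5 signals on a log axis at 1 h and 5 h for 12 genes that were lower at 5 h; each line joins the 2 arrays of 1 replicate number, and there are no error bars because every array is drawn. All 36 lines slope down, and in Hbegf the arrays keep the order 1, 2, 3 at both times.

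F3, tissue factor, the receptor that starts coagulation, read 667, 1072 and 1025 at 1 h and 123, 117 and 161 at 5 h and fell 6.81-fold (log2 change -2.77 ± 0.19, SE, adjusted p = 1.32e-05). Within the tissue factor and plasminogen list of 9 tested genes F3 was the single fall, and Procr, the endothelial receptor of protein C on the anticoagulant side, was the single rise (214, 313 and 176 at 1 h and 476, 496 and 472 at 5 h; 2.11-fold, adjusted p = 0.00385). Thbs1, thrombospondin 1, an inhibitor of angiogenesis that also activates latent TGF-beta, read 4231, 4374 and 7699 at 1 h and 420.3, 399 and 2773 at 5 h. It fell 6.74-fold (log2 change -2.75 ± 0.53, SE, adjusted p = 0.00701), less on number 3 than on the others: the log2 change was -3.73 without 5 h array 3 and -2.17 without 5 h array 2. Ptx3, a soluble pattern recognition protein that binds matrix, read 2138, 2115 and 5722 at 1 h and 345, 76.2 and 1996 at 5 h and fell by 2.98 on the log2 scale (adjusted p = 0.00940, unpaired 0.113). Without 5 h arrays 2 and 3 in turn that change was -1.88 and -3.90. Adamts1, a protease that cuts proteoglycans and thrombospondins, read 901, 1564 and 961 at 1 h and 513, 306 and 490.3 at 5 h and fell 2.60-fold (adjusted p = 0.00659).

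Wnt4, a secreted Wnt ligand, read 231, 117 and 581 at 1 h and 17.0, 13.8 and 109 at 5 h and fell by 3.09 on the log2 scale (adjusted p = 0.00465, unpaired 0.337). Signals of 17.0 and 13.8 lie under 44.9, the 25th percentile of all signals, and are not known to lie above background; after 44.9 was added to each signal the fold was 3.68, and without 1 h array 3 the log2 change was -3.74. Tiparp, a poly(ADP-ribose) polymerase induced by the aryl hydrocarbon receptor, read 7449.8, 6174 and 6845 at 1 h and 2059.7, 1659.5 and 1983 at 5 h and fell 3.59-fold (log2 change -1.85 ± 0.19, SE, adjusted p = 0.000118). Cyp1b1, a cytochrome P450 that the same receptor induces, read 682, 309.9 and 2041 at 1 h and 148, 132 and 305 at 5 h and fell 4.16-fold (adjusted p = 0.00061, unpaired 0.113); number 3 was the brightest at both times. Epha2, a receptor for ephrin-A ligands on neighbouring cells, read 1148, 2194 and 1514 at 1 h and 629.7, 533 and 569.7 at 5 h and fell 2.71-fold (adjusted p = 0.00304). Of 16 tested genes of the Slit, Robo and semaphorin list, which holds Epha2, 2 fell and 0 rose (3 at an unadjusted p under 0.05).

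NF-kB subunits and inhibitors, the parts of a pathway behind many inflammatory genes, included 3 falls and 0 rises among 15 tested genes (2 rose at an unadjusted p under 0.05), with 10 of the 15 above 0 and a median of 0.15. Without the block, without 1 h array 2 or without 5 h array 2 the falls numbered 1. Nfkbiz, a nuclear protein of the IkB family, read 2497, 3507 and 2559 at 1 h and 1222, 1243 and 1354 at 5 h and fell 2.22-fold (adjusted p = 0.00168). Nfkbia, the inhibitor IkB-alpha that holds NF-kB in the cytoplasm, read 13751, 12908 and 11751 at 1 h and 10615, 6680.4 and 8923 at 5 h and fell 1.49-fold (adjusted p = 0.0110, unpaired 0.129), a call lost without 1 h array 2 or 5 h array 2. The NF-kB site, searched with chemokines included, was in 9 of 18 members with a window, 2 of them called, beside 5.14% of all genes and 6.32% of tested genes. Among all 18, with or without the site, 3 were called. Capitals mark it for Nfkbia, a known target of the factor it inhibits.
Nfkbia, chr12:55492648-55492701, minus strand: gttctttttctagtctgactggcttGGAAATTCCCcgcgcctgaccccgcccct
Of 16 tested LIF and IL-6 family genes, 2 fell and 1 rose. Il6st, the shared receptor subunit gp130, read 1417, 1399.9 and 3562 at 1 h and 782, 684 and 1839 at 5 h: each number fell about equally, while number 3 stayed above the 1 h signals of the others (1.93-fold, adjusted p = 0.000778, unpaired 0.403).

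Some genes of sterol synthesis, which supplies cell membranes, fell. Of 22 tested cholesterol biosynthesis genes, 8 fell and 0 rose (0 at an unadjusted p under 0.05), 20 of 22 lay below 0, and the median log2 change was -0.51. The falls numbered 2 without the block, 3 without 1 h array 3, 4 without 5 h arrays 1 or 2, and 5 without 1 h array 1, 5 h array 3 or 15 h array 1. Hmgcs1, the synthase that feeds HMG-CoA reductase, read 5234, 3950.2 and 8157 at 1 h and 1904, 2257 and 1129 at 5 h and fell 3.26-fold (log2 change -1.71 ± 0.27, SE, adjusted p = 0.00193), most on number 3. Sqle, the squalene epoxidase that acts further down the pathway, read 4297, 4378 and 5331 at 1 h and 2593, 2169 and 1967 at 5 h and fell 2.09-fold (adjusted p = 0.00293). Stard4, a carrier that moves cholesterol between membranes, fell 2.20-fold (adjusted p = 0.00185, unpaired 0.0894). The sterol response element core, TCACNCCAC on either strand, where SREBP factors bind, was found for 1 of 18 list members with a window, Hmgcs1, beside 1.44% of all genes and 1.39% of tested genes.
Hmgcs1, chr13:119690189-119690247, plus strand: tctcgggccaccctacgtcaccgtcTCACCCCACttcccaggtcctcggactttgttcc

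Of 14 tested fatty acid synthesis genes, 2 fell and 0 rose (0 at an unadjusted p under 0.05). Lpin1, a phosphatidate phosphatase that is also a nuclear co-regulator, read 489.5, 623 and 592 at 1 h and 159, 245 and 122 at 5 h and fell 3.36-fold (log2 change -1.75 ± 0.18, SE, adjusted p = 0.000118). Elovl6, which lengthens saturated fatty acids, fell 1.88-fold (adjusted p = 0.00290, unpaired 0.0704).

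Genes of glucose use and insulin signalling split. Of 28 tested glycolysis and hypoxia genes, 3 fell and 3 rose. Pfkfb3, which makes the sugar phosphate that drives phosphofructokinase and is needed by sprouting endothelial tip cells, read 294, 415 and 305 at 1 h and 71.7, 89.5 and 172 at 5 h and fell 3.23-fold (adjusted p = 0.00131). Hk2, the inducible hexokinase, read 1835, 1696 and 1913 at 1 h and 1012, 664 and 999 at 5 h and fell 2.07-fold (adjusted p = 0.00245). Hilpda, a lipid droplet protein induced by hypoxia, read 711, 605 and 508 at 1 h and 209, 261 and 218 at 5 h and fell 2.64-fold (adjusted p = 0.00061). The 3 falls stayed called without the block; the 3 rises numbered 0 without it, 0 when array 1 or 2 of either time was left out, and 1 without 1 h array 3 or 15 h array 1. The largest of them, Pfkp, the platelet form of phosphofructokinase, rose 1.52-fold (adjusted p = 0.0296, unpaired 0.451), a call that needed arrays 1 and 2 of both times, and its signals overlapped.

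Of 12 tested genes of the IGF axis, 3 fell and 1 rose, or 0 and 0 without the block. Irs1 and Irs2, the adaptors that carry the signal from the insulin and IGF receptors, both fell. Irs1 read 1319, 1871 and 980.0 at 1 h and 643, 564 and 486 at 5 h (2.39-fold, adjusted p = 0.00171, unpaired 0.0648). Irs2 read 663, 698 and 1245 at 1 h and 276, 354 and 285 at 5 h (2.75-fold, adjusted p = 0.00256, unpaired 0.0831). Their receptor Igf1r read 365, 319.9 and 354 at 1 h and 244, 114 and 192 at 5 h and fell 1.98-fold (adjusted p = 0.0124, unpaired 0.113), a call lost without 1 h array 2 or 5 h array 2.

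Bhlhe40, a repressor of the circadian clock, read 3545, 3393 and 3188 at 1 h and 729.7, 852 and 948 at 5 h and fell 4.02-fold (log2 change -2.01 ± 0.19, SE, adjusted p = 7.33e-05). Of 11 tested clock genes, 3 fell and 0 rose (0 at an unadjusted p under 0.05), with 1 fall without the block, without 1 h array 2 and without 5 h arrays 2 or 3. Of 9 tested Kruppel-like factors, 2 fell and 0 rose (0 at an unadjusted p under 0.05), or 0 fell without the block. Klf9, which glucocorticoids induce, read 1632, 2166 and 4304 at 1 h and 803, 1270.4 and 1341 at 5 h and fell 2.23-fold (adjusted p = 0.00385, unpaired 0.335). Vegfd, a ligand of VEGF receptors that acts on lymphatic and blood vessels, read 1476, 1498 and 1625 at 1 h and 615, 416 and 900.3 at 5 h and fell 2.50-fold (adjusted p = 0.000935). Mnt, a Max partner that opposes Myc, read 1036, 671 and 1271 at 1 h and 389, 413 and 331 at 5 h and fell 2.55-fold (adjusted p = 0.00290).

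Among the gains were 2 TGF-beta ligands. Of 15 tested TGF-beta ligands and receptors, 4 rose and 1 fell, with a median log2 change of 0.51, or -0.04 with the stricter brightness filter. Tgfb1, the main TGF-beta isoform, read 705, 302 and 532 at 1 h and 2194, 2292 and 1548 at 5 h and rose 4.10-fold (log2 change 2.03 ± 0.25, SE, adjusted p = 0.00061). Tgfb3, an isoform that signals through the same receptors, read 279.9, 100.3 and 234 at 1 h and 1289, 1014 and 734 at 5 h and rose 5.26-fold (log2 change 2.40 ± 0.30, SE, adjusted p = 0.00061). For both ligands the dimmest 5 h array was more than 2-fold above the brightest 1 h array. Grem1, a secreted antagonist of BMP ligands, read 524, 329.7 and 1099 at 1 h and 2077, 2603 and 1842 at 5 h and rose 3.74-fold (adjusted p = 0.00215), with the highest 1 h signal on number 3. Acvr1, a type I receptor for BMPs and activins, read 560.1, 729 and 917 at 1 h and 1094, 1464 and 1347 at 5 h and rose 1.79-fold (adjusted p = 0.00667, unpaired 0.129). The fall was Tgfbr3, the co-receptor betaglycan, with a log2 change of -1.31 (adjusted p = 0.0470, unpaired 0.124), or -0.72 without 5 h array 1. It lost its call in 9 of the 12 fits that left out 1 array; it lies outside the rule for named genes and was picked after its value was seen.

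BMP receptors induce the Id genes, whose products block basic helix-loop-helix factors, through Smad1 and Smad5, and they also induce inhibitors of the pathway. Of 10 tested Id and inhibitory Smad targets, 4 rose and 0 fell (1 at an unadjusted p under 0.05), 9 of 10 lay above 0, and the median log2 change was 0.58; 1 rose without the block. Id1 read 2495, 1545 and 1547 at 1 h and 4613, 3639 and 5884 at 5 h and rose 2.55-fold (adjusted p = 0.00290). Id3 read 1796, 1592 and 2304 at 1 h and 4695, 2885 and 4498 at 5 h and rose 2.10-fold (adjusted p = 0.00061, unpaired 0.0904). Bambi, a pseudoreceptor that dampens TGF-beta signalling, read 161, 201 and 70.2 at 1 h and 272, 336 and 267 at 5 h and rose 2.21-fold (adjusted p = 0.00885, unpaired 0.127). In these 3 genes each 5 h signal was above all the 1 h signals.

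Of 8 tested VEGF ligands, receptors and neuropilins, 2 rose and 1 fell, the fall being Vegfd. Flt1, VEGF receptor 1, which traps VEGF-A, read 181, 85.3 and 129.6 at 1 h and 602, 375 and 645 at 5 h and rose 4.17-fold (log2 change 2.06 ± 0.25, SE, adjusted p = 0.000508). Flt1 was also the single call among the 5 endothelial identity markers that passed the brightness filter. Nrp2, a co-receptor of VEGF-C and semaphorins, was the other rise (1.44-fold, adjusted p = 0.0483, unpaired 0.208), its signals overlapped, and its call was lost in 10 of the 12 fits that left out 1 array. Pdgfa, a ligand that recruits mesenchymal cells, read 251, 189 and 78.6 at 1 h and 559, 541 and 210.4 at 5 h: each number rose by between 2 and 3-fold, and the 5 h signal of number 3 lay within the 1 h range (2.58-fold, adjusted p = 0.00293, unpaired 0.270). It was the single call among 5 tested PDGF ligands and receptors.

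**Figure D3:**
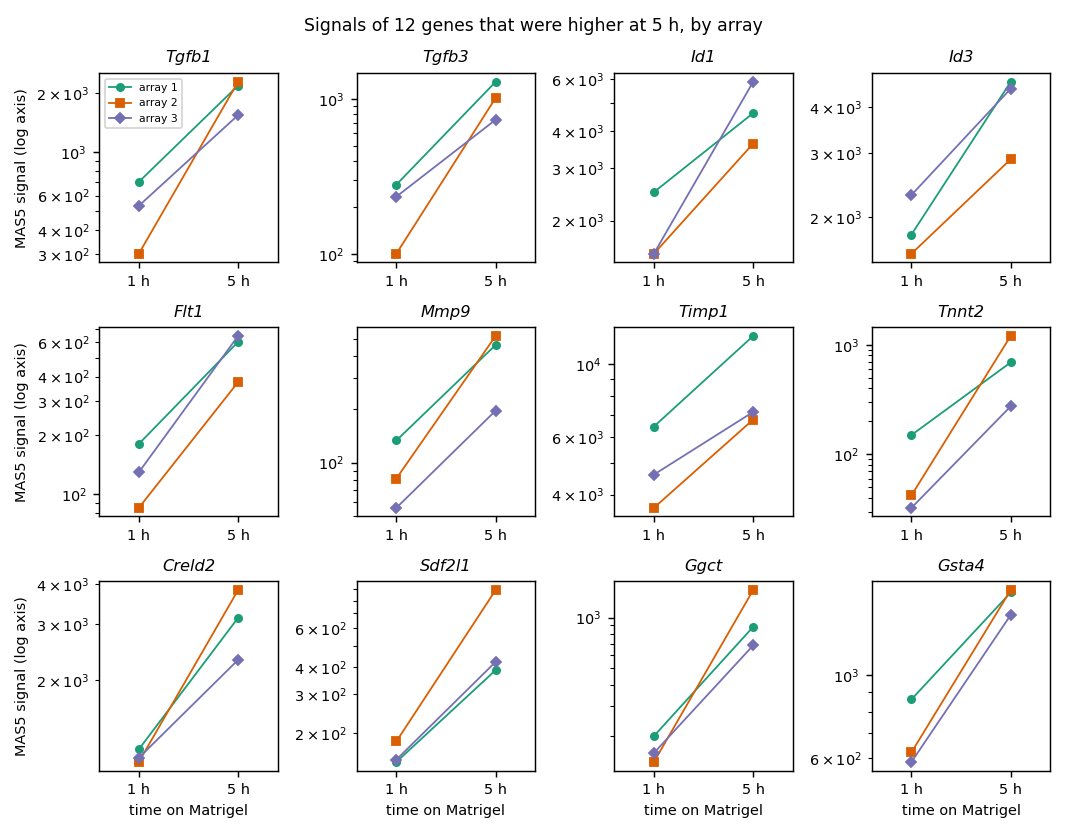
MAS5 signals on a log axis at 1 h and 5 h for 12 genes that were higher at 5 h; each line joins the 2 arrays of 1 replicate number, and no error bars are drawn. All 36 lines slope up, and Tnnt2 has the widest spread between arrays, from 32.6 to 150.2 at 1 h.

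Matrix enzymes moved both ways. Of 16 tested metalloproteinases, ADAMTS proteases and inhibitors, 4 rose and 2 fell; without the block 0 rose and 1 fell, and 2 rose without 1 h array 1 or without 5 h arrays 1 or 3. Mmp9, gelatinase B, which cleaves the collagen IV of basement membranes, read 133, 81.2 and 55.4 at 1 h and 463, 521 and 197 at 5 h and rose 4.29-fold (log2 change 2.10 ± 0.22, SE, adjusted p = 0.000136, unpaired 0.0872), with number 3 the dimmest at both times. Timp1, an inhibitor of metalloproteinases, read 6447, 3646 and 4603 at 1 h and 12166, 6769 and 7139.9 at 5 h and rose 1.76-fold (adjusted p = 0.00408, unpaired 0.139). Mmp10, stromelysin 2, read 23.9, 145 and 53.8 at 1 h and 379, 208 and 353 at 5 h; its rise (log2 change 2.40, adjusted p = 0.0186, unpaired 0.0904) did not hold when 1 h array 1 or either 5 h array 1 or 3 was removed, and its lowest signal lies under the 25th percentile. The log2 change of Mmp10 was 1.56 without 1 h array 1 and 3.08 without 5 h array 2, and its fold with the offset was 3.21.

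Structural matrix genes were called in both directions, with counts set beside the 7.77% called among all genes. Of 17 tested collagen chains, 2 rose and 0 fell (4 at an unadjusted p under 0.05), and of 8 laminins, nidogens and perlecan 0 passed limma's test (1 rose and 1 fell at an unadjusted p under 0.05). Col6a3, a chain of the beaded filament collagen VI, read 3157, 1791 and 3064 at 1 h and 4845, 5006 and 5351 at 5 h and rose 1.96-fold (adjusted p = 0.00232). The other rise, Col5a3 of the minor fibrillar collagens, had a log2 change of 1.42 (adjusted p = 0.0458, unpaired 0.268), or 0.69 without 1 h array 2, and its call was lost in 10 of the 12 fits that left out 1 array. Of 12 elastic fibre genes 1 rose and 1 fell. Lox, which cross-links collagen and elastin, read 8663, 11826 and 8986 at 1 h and 4274, 5526 and 6991 at 5 h and fell 1.77-fold (adjusted p = 0.00874, unpaired 0.0505), a call lost without 1 h array 2. Dcn, decorin, a small proteoglycan that binds collagen and TGF-beta, read 499.9, 352 and 1696 at 1 h and 697, 1261 and 2844 at 5 h and rose 2.03-fold (adjusted p = 0.0152, unpaired 0.526); its signals overlapped and the call was lost without 1 h array 2 or 5 h array 2.

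A few further rises started from signals near background, where the fold depends on values not known to be above it. Itgb3, the beta 3 subunit of the vitronectin receptor on angiogenic endothelium, read 22.9, 8.30 and 52.9 at 1 h and 203, 318 and 299.8 at 5 h. It rose by 3.64 on the log2 scale (adjusted p = 0.00919), by 2.58 and 4.66 without 1 h arrays 2 and 3, and 4.44-fold after 44.9 was added to each signal. It was the single call among 7 tested integrin subunits. Tnnt2, cardiac troponin T, read 150.2, 42.4 and 32.6 at 1 h and 691, 1202 and 275 at 5 h and rose by 3.37 (adjusted p = 0.00061, unpaired 0.0659), by 2.66 without 1 h array 2, and 6.06-fold with the offset. Smoc2, a secreted relative of Sparc, read 34.3, 29.5 and 67.4 at 1 h and 209, 466 and 246 at 5 h and rose by 2.82 (adjusted p = 0.000935), by 3.41 without 5 h array 3, and 3.85-fold with the offset. In all of these the lowest 5 h signal was above the highest 1 h signal.

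The endoplasmic reticulum folds secreted and membrane proteins, and part of its folding genes rose. Of 31 tested ER folding and stress genes, 7 rose and 1 fell, 27 lay above 0, and the median log2 change was 0.42 (18 rose and 1 fell at an unadjusted p under 0.05). The rises numbered 2 without the block, 3 without 1 h array 1, 2 without array 2 of either time, 4 without 5 h array 1, and 13 without 5 h array 3. Creld2, an ER stress-induced protein, read 1215, 1109 and 1143 at 1 h and 3134, 3828 and 2315 at 5 h and rose 2.62-fold (log2 change 1.39 ± 0.20, SE, adjusted p = 0.00116). Sdf2l1, a partner of the chaperone BiP, read 148, 183 and 151 at 1 h and 386, 894 and 421 at 5 h and rose 3.29-fold (adjusted p = 0.00181), most on number 2. Xbp1, the transcription factor of the unfolded protein response, read 3181, 2369 and 3218 at 1 h and 4381, 5476 and 4539 at 5 h and rose 1.65-fold (adjusted p = 0.0126, unpaired 0.0706), a call lost without 1 h array 2 or 5 h array 2. Ppp1r15a, GADD34, which reverses the stress-induced block of translation, was the member that fell (1487, 1617 and 1443 at 1 h and 723, 642 and 492 at 5 h; 2.48-fold, adjusted p = 0.00285).

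The ER stress response element, CCAAT followed after 9 bases by CCACG, searched on both strands, was found in 8 of 27 members with a window, 2 of them called, beside 0.137% of all genes and 0.182% of tested genes. Among all 27, with or without the element, 6 were called. Capitals mark the element in the called genes, where Creld2 holds it in reverse orientation, and Dnajc3, a co-chaperone of BiP, rose 1.71-fold (adjusted p = 0.0180, unpaired 0.129), a call lost without array 1 or 2 of either time.
Creld2, chr15:88819495-88819563, plus strand: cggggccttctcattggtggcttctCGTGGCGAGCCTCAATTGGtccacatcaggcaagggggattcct
Dnajc3, chr14:118937802-118937870, plus strand: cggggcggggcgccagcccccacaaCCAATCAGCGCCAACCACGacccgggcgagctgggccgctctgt

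The factor ATF4 switches on genes that make and import amino acids, and part of them rose. Of 25 tested genes of the ATF4 amino acid response, 7 rose and 1 fell, 20 lay above 0, and the median log2 change was 0.28. The rises numbered 0 without the block, 2 without 1 h array 1 or 2, 3 without 1 h array 3 or 5 h array 1, and 1 without 5 h array 2. Gpt2, which makes alanine in mitochondria, read 288, 506 and 295 at 1 h and 677, 839 and 495 at 5 h and rose 1.87-fold (adjusted p = 0.00484, unpaired 0.129), with overlap between the times. Slc7a11, the cystine importer that feeds glutathione synthesis, read 111, 94.3 and 116 at 1 h and 188, 396 and 330.2 at 5 h and rose 2.72-fold (adjusted p = 0.00795, unpaired 0.0934), a call lost without 5 h array 2. Asns, asparagine synthetase, read 2141, 2016 and 1750.1 at 1 h and 3358, 3485 and 2343 at 5 h and rose 1.54-fold (adjusted p = 0.0157, unpaired 0.128), a call lost when 1 h array 1 or array 2 of either time was removed. The neutral amino acid transporter Slc38a2 fell, from 4333, 4991 and 4556 at 1 h to 2469, 3101 and 2356 at 5 h (1.76-fold, adjusted p = 0.00667, unpaired 0.0603).

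The C/EBP-ATF element (TGATGNAA, both strands), which ATF4 binds with C/EBP partners, was in 8 of 22 members with a window, 4 of them called, beside 4.51% of all genes and 2.45% of tested genes. Among all 22, with or without the element, 7 were called. Slc7a11 carries 2 copies in opposite orientation, marked in capitals, and Asns carries 1.
Slc7a11, chr3:50443628-50443704, minus strand: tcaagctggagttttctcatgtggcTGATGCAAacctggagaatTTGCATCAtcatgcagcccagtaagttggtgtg
Asns, chr6:7693210-7693257, minus strand: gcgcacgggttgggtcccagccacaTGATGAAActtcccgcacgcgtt
Of 20 tested aminoacyl tRNA synthetases, which charge tRNAs for translation, 3 rose and 0 fell (7 rose and 0 fell at an unadjusted p under 0.05), 18 of 20 lay above 0 and the median log2 change was 0.22. None of the 3 calls remained without the block, without 1 h array 3 or without 5 h arrays 1 or 2, and 1 was left without 1 h arrays 1 or 2.

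Some redox enzymes rose as well. Of 28 tested glutathione and NRF2 enzymes, 6 rose and 0 fell (0 at an unadjusted p under 0.05), with 21 above 0 and a median log2 change of 0.23; 2 rose without the block and 3 without 5 h array 2. Ggct, an enzyme of glutathione breakdown, read 199, 139 and 158 at 1 h and 882, 1458 and 685 at 5 h and rose 5.87-fold (log2 change 2.55 ± 0.25, SE, adjusted p = 9.91e-05). Gsta4, a glutathione transferase that clears lipid peroxidation products, read 862, 623 and 587 at 1 h and 1665, 1690.0 and 1450.0 at 5 h and rose 2.35-fold (adjusted p = 0.00128). Of 9 carbonyl reductases and related genes 2 rose and 0 fell (0 at an unadjusted p under 0.05), all 9 lay above 0, and 0 passed without the block.

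A few immune and steroid genes rose. Cebpd, a C/EBP factor of the acute-phase response, read 397, 376 and 1236 at 1 h and 1950.3, 1684 and 2502 at 5 h and rose 3.54-fold (log2 change 1.83 ± 0.33, SE, adjusted p = 0.00483), or by 2.42 on the log2 scale without 1 h array 3, the brightest array of its time. Cd14, a co-receptor for bacterial lipopolysaccharide, read 965, 1029 and 914 at 1 h and 1868, 1679 and 2027 at 5 h and rose 1.91-fold (adjusted p = 0.00322). Ccl5, a chemokine that attracts T cells, read 173, 156 and 281 at 1 h and 565, 425 and 575 at 5 h and rose 2.63-fold (adjusted p = 0.00154). Cx3cl1, fractalkine, a chemokine anchored in the endothelial membrane, read 1200.0, 389 and 1667 at 1 h and 3059, 1807 and 2664 at 5 h and rose 2.67-fold (adjusted p = 0.00812, unpaired 0.117). These were the 2 rises among 13 tested chemokines, with 0 falls (5 at an unadjusted p under 0.05) and a list median log2 change of -0.27. Without 5 h array 3 the chemokine falls numbered 4 beside 2 rises, with a median of -0.47, so the balance of the list turned on that array. Of 16 interferon-stimulated genes 0 passed limma's test (0 rose and 2 fell at an unadjusted p under 0.05). Cyp7b1, an enzyme that hydroxylates oxysterols, read 115, 82.4 and 148 at 1 h and 316, 358 and 517 at 5 h and rose 3.47-fold (adjusted p = 0.000538). Phlda3, a p53 target that inhibits the kinase Akt, read 1654, 838 and 2256 at 1 h and 3859.8, 3562 and 3847 at 5 h and rose 2.57-fold (adjusted p = 0.00403).

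Other large rises had no list. Ptpn22, a tyrosine phosphatase studied mostly in lymphocytes, read 199, 234 and 296 at 1 h and 594, 938 and 1308 at 5 h and rose 3.76-fold (adjusted p = 0.000252). Abhd1, a member of the alpha/beta hydrolase family, read 263, 229 and 160.1 at 1 h and 872, 652 and 689 at 5 h and rose 3.43-fold (adjusted p = 7.33e-05). Both kept their call without the block.

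**Figure D4:**
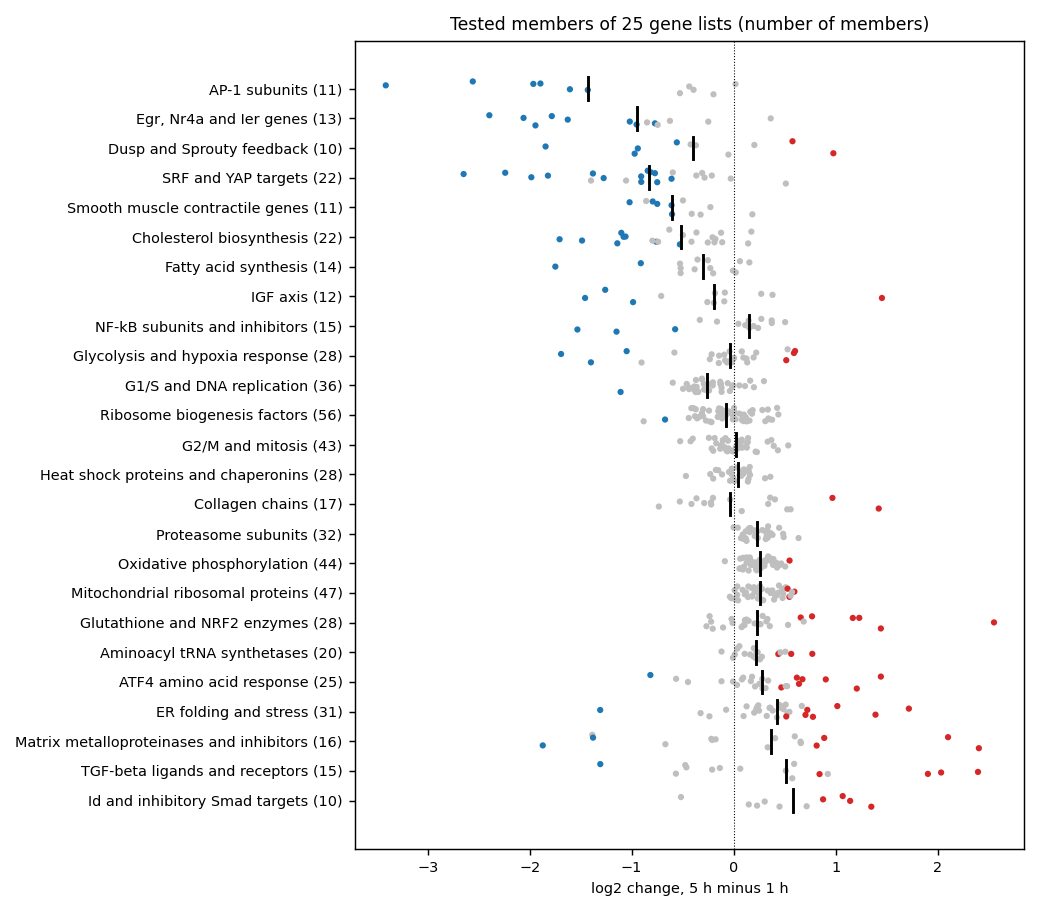
Each point is a tested member of 1 of 25 gene lists, placed by its log2 change from 1 h to 5 h; blue points were lower and red points higher at an adjusted p under 0.05, grey points did not pass, and the black bar is the list's median. AP-1 subunits lie lowest with a median of -1.43 and Id and inhibitory Smad targets highest with 0.58.

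Proliferation and protein synthesis genes showed few or no calls over the same hours. Of 43 G2/M and mitosis genes 0 passed limma's test (3 rose and 1 fell at an unadjusted p under 0.05), with a median log2 change of 0.02; Top2a, the topoisomerase that untangles chromosomes, read 3639.9, 3775 and 3108 at 1 h and 3499.5, 3289 and 3352 at 5 h. Of 36 G1/S and DNA replication genes 1 fell and 0 rose (5 fell and 0 rose at an unadjusted p under 0.05), and 31 lay below 0 with a median of -0.26. The 1 was Ung, a uracil glycosylase of DNA repair (2.16-fold, adjusted p = 0.0461, unpaired 0.190), a call lost in 8 of the 12 fits without 1 array. Of 56 ribosome biogenesis factors 1 fell and 0 rose (7 fell and 3 rose at an unadjusted p under 0.05), or 3 fell without 25 h array 3. Of 38 cytosolic ribosomal proteins 0 passed (4 rose and 0 fell at an unadjusted p under 0.05), and Rps2 read 22040.1, 17545 and 15722 at 1 h and 22601, 13487 and 14484 at 5 h. Of 31 translation factors 0 passed (2 rose and 1 fell), and of 28 heat shock proteins and chaperonins 0 passed (1 rose and 2 fell, again unadjusted). Myc, which drives cell growth, fell 1.52-fold (adjusted p = 0.0417, unpaired 0.161), a call lost in 8 of the 12 fits that left out 1 array.

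Mitochondrial and proteasome genes gave few calls, while nearly all members lay above 0. Of 44 oxidative phosphorylation subunits 43 lay above 0, with a median log2 change of 0.26 beside 0.04 for all genes, while 1 rose and 0 fell by limma's test (16 rose and 0 fell at an unadjusted p under 0.05). Ndufa2, a subunit of respiratory complex I, was the 1 (1082, 1110.0 and 1094 at 1 h and 1743, 1707 and 1382 at 5 h; adjusted p = 0.0458, unpaired 0.134), and it lost its call in 8 of 12 fits without 1 array. Of 47 mitochondrial ribosomal proteins 45 lay above 0, with a median of 0.26, and 3 rose and 0 fell (15 and 0 unadjusted). None of those 3 calls remained without the block, without any 1 h array or without 5 h array 2, and 1 was left without 5 h array 1. Of 32 proteasome subunits 31 lay above 0 with a median of 0.23, and 0 passed (12 rose and 0 fell unadjusted). The genes of such lists share libraries and tend to move together, so the shares above 0 are a description, without a test.

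The cell identity of the line was checked on the same 6 arrays. Of 26 measured endothelial identity markers, 5 passed the brightness filter and 5 lay under the 25th percentile on all 12 arrays. The defining genes Pecam1 and Vwf had mean signals of 18.7 and 1.87 at 1 h, under that percentile. Tie1, Icam2, Erg and Plvap, with means of 1.83, 9.63, 11.7 and 13.1 at 1 h, were also under it. Kdr and Cdh5 had means of 121 and 170 at 1 h, below the filter's signal of 183.1. Brightest of the list were Cd93, Cd34 and Gata2, with means of 1066, 451 and 430 at 1 h. Cd93 made up 32.1% of the list's summed signal at 1 h. Summed over the list, endothelial signals ran from 2111 to 4006.5 at 1 h and from 3034.5 to 4386 at 5 h. Fibroblast markers summed to between 68317 and 91440.0 at 1 h and between 57174 and 84603 at 5 h. Of 14, 11 passed the filter, with 1 higher and 0 lower (4 lower at an unadjusted p under 0.05). A larger share of fibroblast than of endothelial markers thus passed. Col1a2, Vim and Col1a1 had means of 18336, 18060 and 15384 at 1 h, while Dpt, Lum and Fap had 73.5, 35.2 and 31.4. Pericyte and smooth muscle markers summed to between 9445 and 22939 at 1 h and 8670.2 and 17240.2 at 5 h. Leukocyte markers (3 of 14 passed) had 1 higher, Cd14, and summed to 2657.5 to 6186 at 1 h and 4378 to 6325 at 5 h. Epithelial markers (1 of 15 passed) summed to 634 to 906 and 666 to 727. Parietal endoderm markers were listed for the tumour that the gel is made from. Of 14, 8 passed and 0 were called (1 rose at an unadjusted p under 0.05). They summed to 20762 to 22293 at 1 h and 17995 to 25306 at 5 h. Sparc made up 43.1% of the 1 h sum, while Lama1, Pth1r and Sox7 had means of 13.7, 15.6 and 30.1 at 1 h, under the 25th percentile. By replicate number, the fibroblast sum and the pericyte and smooth muscle sum were higher at 5 h in 0 of 3 numbers, the endothelial and leukocyte sums in 2 of 3, and the epithelial and parietal endoderm sums in 1 of 3. A sum adds unlike probe sets and is led by the brightest: Acta2 made up 54.2% of the pericyte and smooth muscle sum at 1 h and Csf1r 63.9% of the leukocyte sum. The part of other cell types in the results was not tested, and in bulk RNA fewer cells of a type and less RNA per cell cannot be told apart.

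Levels at the later times place the 5 h values within the course of the culture, as a description without a test. The later arrays also entered the brightness filter and the fit behind the comparison of 5 h with 1 h. They are therefore not an independent set. Several losses persisted: Fosb had a mean signal of 91.3 ± 7.11 (SD, n = 3) at 15 h and 96.0 ± 26.2 at 25 h, and Cavin2 623 ± 93.0 and 695 ± 128. Others were deepest at 5 h. F3 read 245 ± 55.3 at 15 h and 426 ± 53.5 at 25 h, after 134 at 5 h. Vegfd read 1488 ± 5.70 and 1965 ± 243, and Pfkfb3 680.5 ± 252 and 799 ± 275, in both cases at or above the 1 h mean by 25 h. Lox, lowest at 5 h, read 13645 ± 1207 and 14829 ± 1371.

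Among the gains, Tgfb3 read 460.3 ± 67.0 and 604 ± 167 at 15 and 25 h, between its 1 h and 5 h means. Flt1 read 229 ± 34.5 and 254 ± 20.7, and Creld2 1262 ± 314 and 1440.4 ± 64.8, both lower than at 5 h. Cd14 and Cebpd went on upward, to 7206 ± 2083 and 5828 ± 1229.8 at 25 h. Tnnt2 read 725 ± 428 at 15 h and 127 ± 104 at 25 h.

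**Figure D5:**
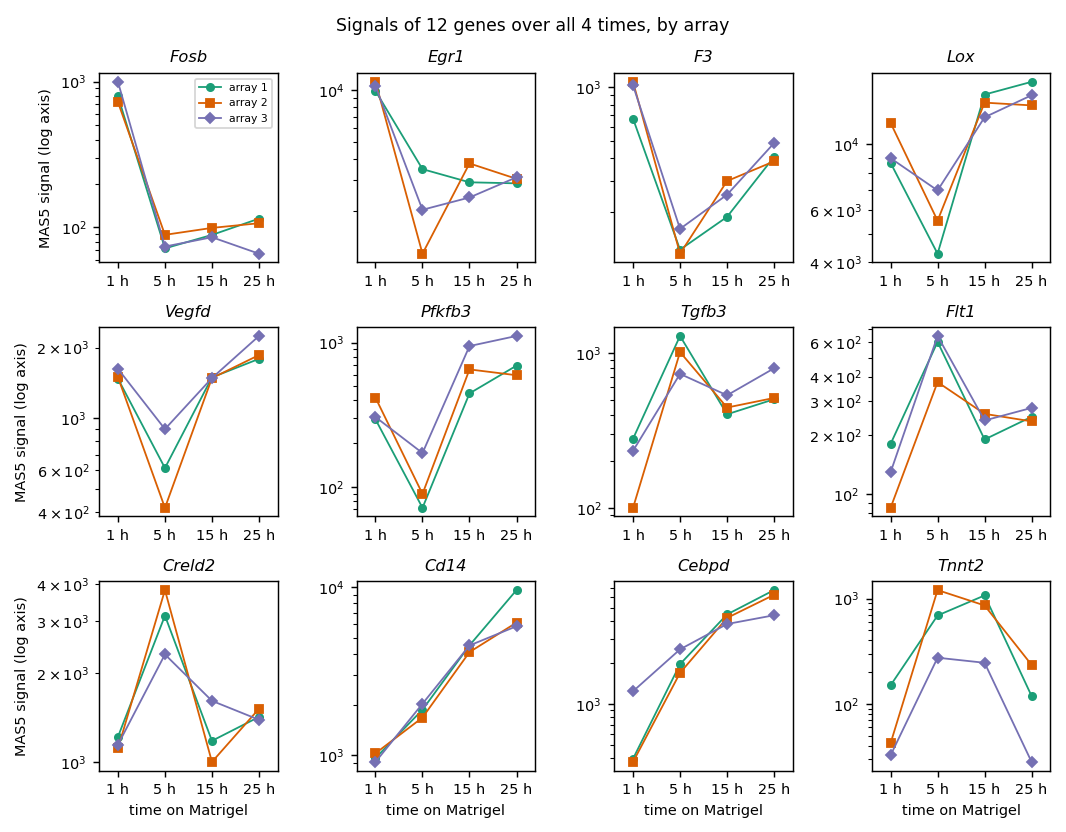
MAS5 signals on a log axis over all 4 times for 12 genes, with 1 line per replicate number and no error bars. Fosb stays low from 5 h on, Lox, Vegfd and Pfkfb3 dip at 5 h, Tgfb3, Flt1 and Creld2 have their highest mean at 5 h, and Cd14 and Cebpd climb through 25 h.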

How the data were processed

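Total RNA (6 µg per sample) was labelled with biotin and hybridised to Affymetrix mouse arrays of 22690 probe sets, per the labels' protocols. The authors deposited 1 intensity per probe set and array, computed with MAS5 per the submitters' processing notes, whose version and settings the sources used here do not give. After 2% was trimmed from each end, every array had a mean of 500.1 to 500.2, so no further normalization was applied. The scaling removes any change in total mRNA per cell. Medians of the 6 arrays ran from 154 to 177, and 3' to 5' ratios were 0.796 to 0.876 (Gapdh) and 1.01 to 1.09 (actin).

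Signals were log2-transformed. The 64 control probe sets and 1 with empty values were left out. Symbols came from GEO's platform annotation (1 symbol for 20380 probe sets, several for 691, none for 1555), of which 20364 matched a RefSeq gene table by Entrez ID with 0 symbols changed. Probe sets at or above the overall median signal (183.1) on 3 or more of 12 arrays were kept, and the one with the highest mean stood for its gene, leaving 7379 genes. A linear model with 1 mean per time and the replicate number as a block (6 residual degrees of freedom) was fitted to all 12 arrays with limma 3.58.1 in R 4.3.3, with an intensity trend, and p-values (2-sided) were adjusted by Benjamini-Hochberg over all genes. The script was tested on simulated data. The titles give the numbers without saying what equal numbers share, so the pairing rests on this check. Deviations from the time means correlated with r from 0.328 to 0.632 between equally numbered 1 h and 5 h arrays. Between others r ran from -0.428 to 0.109, and 12 of 12 arrays were closest to one of their own number. The 3 deviations of a time sum to 0, which by itself pulls r between unlike numbers down. A shared culture and shared processing cannot be told apart by this check. Sample columns of other series numbered 0.

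Genes were named by rule: the 15 largest rises and falls among called genes without overlap whose higher mean reached 304.7 (the 60th percentile), and up to 4 called members of each of 64 lists by smallest p. For lists without a call, it took 2 by highest mean signal. Part of these 149 genes appear in the text, a selection made with their values and lost calls in view, to save length. Members, lists and tests were chosen with earlier results of these data known. The lists hold 1222 measured genes, 996 of them tested, and 146 of the 573 calls. Alternatives were the fit without the block, the 6 arrays alone, other normalizations, filters, an offset, no trend, other probe sets and arrays left out.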

Additional observations from a re-analysis of the deposited data

How the results depend on the processing

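The count of 573 genes (331 higher, 242 lower) depended most on the replicate block. Without the replicate block 122 genes passed (65 higher, 57 lower), and on the 6 arrays of 1 h and 5 h alone 27 passed without it (12 and 15). With the block the 6 arrays alone gave 203 higher genes beside 209 lower. Every other setting that kept all arrays gave 420 to 555 calls: median centring gave 530 (254 higher, 276 lower, so that 47.9% and not 57.8% were higher), quantile normalization 479, and no brightness filter 420. Leaving out 1 array, or all arrays of 1 number, gave 152 to 632 calls, 71 to 366 higher and 81 to 279 lower. Leaving out number 1, 2 or 3 left 152, 163 and 397, fits with fewer arrays. Of the 122 named genes with a call, 77 kept it in every fit without 1 array, 64 without number 1, 49 without the block and 21 in every alternative, and 0 reversed; of 2966 such results 598 lost the call in the same direction. Col5a3, Ndufa2 and Nrp2 also lost theirs under median centring and quantile normalization. Of 1535 list medians 118 moved beyond the spread between replicates. Where a call was lost, the cause was not tested, and part of these fits also had a smaller number of arrays. Signals under 44.9 are not known to exceed background, which limits folds of dim genes.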

Other observations

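Genes outside all lists, picked after their values were seen, add to the picture. Txnip, which binds thioredoxin and restrains glucose uptake, read 207, 299 and 287 at 1 h and 753, 601 and 844 at 5 h and was 2.78-fold higher at 5 h (adjusted p = 0.000905), while Hk2 and Pfkfb3 were lower. Mmd, a membrane protein of the progestin receptor family, read 1138, 1417 and 857 at 1 h and 2469.8, 4112 and 2802 at 5 h (2.74-fold higher, adjusted p = 9.91e-05). Etv5, an ETS factor that ERK signalling induces, read 101, 107 and 118 at 1 h and 244, 339 and 356 at 5 h and was 2.84-fold higher (adjusted p = 0.00154), opposite in direction to Egr1 and Fos. Atoh8, a helix-loop-helix factor that BMP signalling induces in endothelial cells, read 34.1, 12.2 and 85.5 at 1 h and 250.1, 186 and 443 at 5 h, with 1 h arrays 1 and 2 under the 25th percentile of signals (adjusted p = 0.00061).

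On the side of losses, Mcl1, an inhibitor of apoptosis with a short-lived mRNA, read 3734, 3622 and 4596 at 1 h and 2254, 1821 and 1928 at 5 h and was 1.99-fold lower (adjusted p = 0.00286). Foxd1, a forkhead factor of stromal progenitors, read 2016, 1748 and 2183 at 1 h and 996, 740.1 and 924 at 5 h (2.24-fold lower, adjusted p = 0.000314). Deptor, an inhibitor of the kinase mTOR, read 167, 139.9 and 361 at 1 h and 31.8, 29.8 and 78.7 at 5 h (adjusted p = 7.33e-05), with 5 h arrays 1 and 2 under the 25th percentile, and Metrnl, a secreted protein related to meteorin, read 1554, 1464 and 701 at 1 h and 529.5, 330.0 and 361 at 5 h (2.94-fold lower, adjusted p = 0.00061). All 8 genes of these paragraphs kept their call in each of the 12 fits that left out 1 array, and all but Atoh8 (unpaired adjusted p = 0.0551) kept it without the block.

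The median span in the genome was larger for the genes that fell than for those that rose, while the groups overlapped widely. In the RefSeq table the median distance from start to end was 28.9 kb for 241 of the 242 genes that fell, 16.2 kb for the 331 that rose and 22.5 kb over all tested genes. The lower and upper quartiles were 11.4 and 74.2 kb for the falls, 5.97 and 35.9 kb for the rises and 9.91 and 49.2 kb over all tested genes. This is a description, without a test.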
